A study of Homo sapiens with 10 samples.

Results

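The regions described here are the 2615 highest peaks of SALL4 CUT&RUN library 1, out of the 72309 peaks that library had on chromosomes 1 to 22. Positions are given on hg38 and count from 1. The peaks were chosen by height alone: a highest signal of 23 or more, which is 8 or more of the whole steps of 2.88 in which the signal of this library is counted. They are called high peaks below. The cells were SNU398, a hepatocellular carcinoma line, unmodified for CUT&RUN, in which an antibody guides micrococcal nuclease to cut and release the DNA around its target. Nuclei on beads received an antibody against SALL4 (3 libraries) or normal rabbit IgG (3 libraries, not analysed here, so that the background of the assay at these peaks is not given), and were sequenced as 42-bp read pairs. Total RNA was sequenced 72 hours after transduction of the same line with 1 hairpin against SALL4, shRNA-2 (2 libraries, called knockdown), or with a scrambled hairpin (2 libraries). The labels do not say that libraries of a group came from separate cultures, so the spread between them may be technical.

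SALL4 is a zinc finger protein of the embryo and germ line that is silenced in most adult tissues and is made again in some liver cancers. It recruits the NuRD complex, a histone deacetylase and nucleosome remodeller that lowers transcription, and its zinc finger cluster binds short AT-rich sequence. CUT&RUN shows where an antibody target sits on chromatin, but open chromatin can also be cut without it, which is why an IgG library is made beside it.

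Of the 15 liver markers, 2 reached a mean of 10 CPM (counts per 1000000 counted reads): GPC3, a glypican of liver cancer, at 13.7 and 18.6 in the knockdown and 16.6 and 20.01 in the scramble libraries, and FOXA1, a pioneer factor of liver genes. ALB, the gene of serum albumin, lay between 0.415 and 0.723 CPM, and 9 markers, HNF4A, AFP and APOB among them, had at most 14 reads in any library. Most of the defining transcripts of liver cells were thus near 0 in this line. SALL4 itself lay at 21.6 and 18.7 CPM in the knockdown libraries and at 74.5 and 58.7 CPM in the scramble libraries, a difference of -1.72 ± 0.19 (SE) on the log2 scale with an adjusted p of 5.84427e-06 by edgeR's quasi-likelihood test.

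A group of genes met again and again at the high peaks was that of the replication-dependent histones, and 4 promoter windows are shown for the letters under those peaks. H2BC12 encodes a histone H2B and had the highest high peak of any promoter, 34 steps. H2AC11 shares a promoter with H2BC11 under a high peak of 27 steps, and H2BC17 shares one with H2AC17 under a high peak of 21 steps, each pair being an H2A and an H2B gene that point away from each other. PABPN1 encodes a nuclear poly(A)-binding protein and had the next highest peak over a window of the table, 20 steps. The windows run from 250 bases before to 50 bases after the annotated start, 5′ to 3′ along the gene, and come from RefSeq on GRCh38.p14. Capitals mark the AT-rich words ATATN and TTATN, with N any base but A, on either strand, and the octamer ATTTGCAT on either strand, the letters that POU factors such as OCT1 read in histone promoters. The octamer was searched for after the histone genes had been seen among the high peaks, and its letters can overlap those of an AT-rich word.
H2BC12 (chr6:27146806-27147105, minus strand): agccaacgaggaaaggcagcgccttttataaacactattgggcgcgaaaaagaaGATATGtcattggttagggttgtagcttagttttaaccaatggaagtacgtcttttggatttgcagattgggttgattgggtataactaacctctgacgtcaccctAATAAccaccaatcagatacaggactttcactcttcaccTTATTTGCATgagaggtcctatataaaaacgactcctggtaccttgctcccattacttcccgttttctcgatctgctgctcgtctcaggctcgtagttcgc
H2AC11 (chr6:27132793-27133092, plus strand): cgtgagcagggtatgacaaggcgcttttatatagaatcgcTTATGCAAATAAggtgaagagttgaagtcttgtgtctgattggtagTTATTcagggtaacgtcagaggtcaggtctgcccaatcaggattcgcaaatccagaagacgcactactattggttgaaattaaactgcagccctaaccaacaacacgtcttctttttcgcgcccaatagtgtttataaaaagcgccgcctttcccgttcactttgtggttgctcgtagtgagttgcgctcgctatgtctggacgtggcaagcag
H2BC17 (chr6:27893175-27893474, plus strand): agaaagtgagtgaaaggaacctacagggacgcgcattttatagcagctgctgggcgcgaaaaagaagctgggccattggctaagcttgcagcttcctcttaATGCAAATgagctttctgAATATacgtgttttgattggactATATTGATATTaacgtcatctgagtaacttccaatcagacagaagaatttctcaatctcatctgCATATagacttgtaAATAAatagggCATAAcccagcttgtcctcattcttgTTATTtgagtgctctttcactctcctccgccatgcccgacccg
PABPN1 (chr14:23321207-23321506, plus strand): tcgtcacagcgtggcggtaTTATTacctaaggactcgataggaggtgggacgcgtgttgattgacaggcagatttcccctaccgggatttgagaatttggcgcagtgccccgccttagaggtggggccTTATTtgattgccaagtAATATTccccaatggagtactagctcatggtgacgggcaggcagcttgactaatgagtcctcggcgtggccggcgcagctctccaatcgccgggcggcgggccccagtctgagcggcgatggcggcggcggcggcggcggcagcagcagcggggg

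H2BC12, H2AC11 and H2BC17 each hold 1 octamer, and PABPN1 holds none. The AT-rich words number 4 in H2BC12, 3 in H2AC11, 8 in H2BC17 and 4 in PABPN1. Both motifs are letter matches and no more than that. No genome was used, so sequence could be read only where a high peak met such a window.

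In shape, the high peaks fell into a narrow and a broad kind. Their median height was 10 steps and ranged from 8 to 63 steps. Their median width was 61 bp (21 to 1733 bp), against 115 bp (31 to 707 bp) for the other 69694 peaks of library 1. A width of 50 bp or less was found for 1158 of the 2615 high peaks (44.3%), against 638 of the other peaks (0.915%). The height of a narrow high peak was an even number of steps in 1127 of 1158 cases (97.3%). Among high peaks over 50 bp the height was even in 942 of 1457 (64.7%), and among the other peaks in 32596 of 69694 (46.8%). The other peaks of at most 50 bp were even in 456 of 638 (71.5%, 67.8 to 74.8), against 46.5% of the wider ones. Even heights thus went with narrow width below the threshold too. The total signal of a narrow high peak divided by its height gave a median of 28.8 bp, less than the 42-bp read length. Libraries 2 and 3 showed the same kinds where their peaks reached 8 steps: of their peaks at most 50 bp wide, 118 of 120 and 354 of 364 had an even height. The limit of 50 bp and the count of even steps were chosen after the values had been seen. What makes the narrow peaks even in height was not tested.

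**Figure D1:**
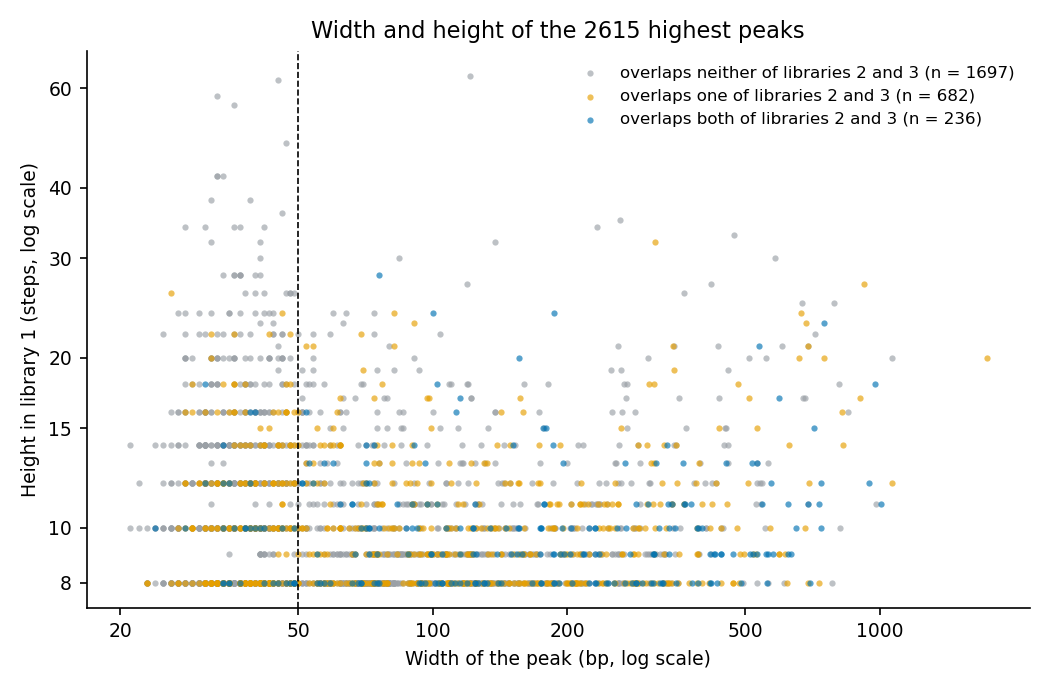
Each point is 1 of the 2615 high peaks, with its width in bp across and its height in steps of library 1 upwards, both on log scales. Colour gives the overlap with libraries 2 and 3, and the dashed line stands at 50 bp; the 1158 peaks left of it lie almost wholly on even steps and are mostly grey.

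The 10 highest of all were mostly of the narrow kind, and libraries 2 and 3 had no peak at any of them. They reached 38 to 63 steps, 9 of the 10 were at most 50 bp wide, the same 9 had an even height, and none overlapped a peak of library 2 or 3. The highest, chr4:13175114-13175234, was the exception, 121 bp wide with an odd height of 63 steps, and lay 193 kb from RAB28, the nearest protein-coding gene. The next, chr11:5437167-5437211 with 62 steps, lay inside OR51B5, an olfactory receptor gene. Others lay inside SPIDR, a scaffold of DNA repair (58 steps), CDH8, a neuronal cadherin (56 steps), the pseudogene HSPA8P9 (48 steps), DCDC1 (42 steps) and UBE2E1, a ubiquitin-conjugating enzyme (38 steps). OR51B5 did not pass the count filter in the RNA, and none of the other 5 passed the test between knockdown and scramble. The largest difference was that of DCDC1, 1.63 ± 0.52 (SE) on the log2 scale with an adjusted p of 0.0662155 by edgeR, at 0.264 and 0.326 CPM in the knockdown and 0.0662 and 0.126 CPM in the scramble libraries. CDH8 lay at 1.79 and 2.15 CPM in the knockdown and at 1.06 and 1.01 CPM in the scramble libraries, with an adjusted p of 0.0635088 by edgeR.

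Repeat in the other libraries was measured as an overlap of at least 1 bp. Library 2 had a peak at 486 of the 2615 high peaks (18.6%, Wilson 95% interval 17.1 to 20.1), against 11.8% of the other peaks and 12% of all peaks of library 1. Library 3 had one at 668 (25.5%, 23.9 to 27.3), against 10.9% of the other peaks and 11.4% of all. Both had one at 236 (9.02%, 7.99 to 10.2), against 2.30% of the other peaks and 2.54% of all. Either had one at 918 (35.1%, 33.3 to 37.0), against 20.3% of the other peaks and 20.9% of all, and 1697 high peaks (64.9%) were met by neither. The intervals cover counting error only, and peaks close together are not independent. The lists differ in size, 388979 peaks in library 2 and 288981 in library 3 on these chromosomes, and their peaks covered 1.21% and 0.883% of the span from first to last peak of the chromosomes.

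Just inside the threshold, 345 of the 1001 peaks of 8 steps (34.5%) overlapped a peak of library 2 or 3. Just outside it, 439 of the 1253 peaks of 7 steps (35.0%) did so. The classes differed in width: 455 of the 1001 peaks of 8 steps were at most 50 bp wide, against 25 of the 1253. Over 50 bp, 220 of 546 peaks of 8 steps overlapped either library (40.3%, 36.3 to 44.5). For 7 steps it was 435 of 1228 (35.4%, 32.8 to 38.1), and these intervals overlap. Of the narrow peaks, 125 of 455 of 8 steps and 4 of 25 of 7 steps did so.

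Among high peaks over 50 bp, 641 of 1457 overlapped either library (44.0%, 41.5 to 46.6), and 203 overlapped both (13.9%). Among narrow ones, 277 of 1158 overlapped either (23.9%, 21.6 to 26.5), and 33 overlapped both (2.85%). At equal width, high peaks of 51 to 100 bp repeated in either library in 35.1% (31.4 to 38.9), against 17.2% of the other peaks of that width, and those of 101 to 200 bp in 43.8% (39.2 to 48.5) against 20.7%. From 201 to 300 bp the shares were 49.5% (42.3 to 56.7) and 43.0% (40.8 to 45.3), whose intervals overlap. Above 300 bp they were 64.0% (57.6 to 70.0) and 68.5% (61.8 to 74.5), and here too the intervals overlap. More height did not bring more repeat throughout: of the 148 high peaks of 20 or more steps, 28 overlapped either library (18.9%, 13.4 to 26.0), and 94 of these 148 were narrow. Within that class the share was 38.9% (27.0 to 52.2) for the 54 broad peaks and 7.45% (3.65 to 14.6) for the 94 narrow ones.

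**Figure D2:**
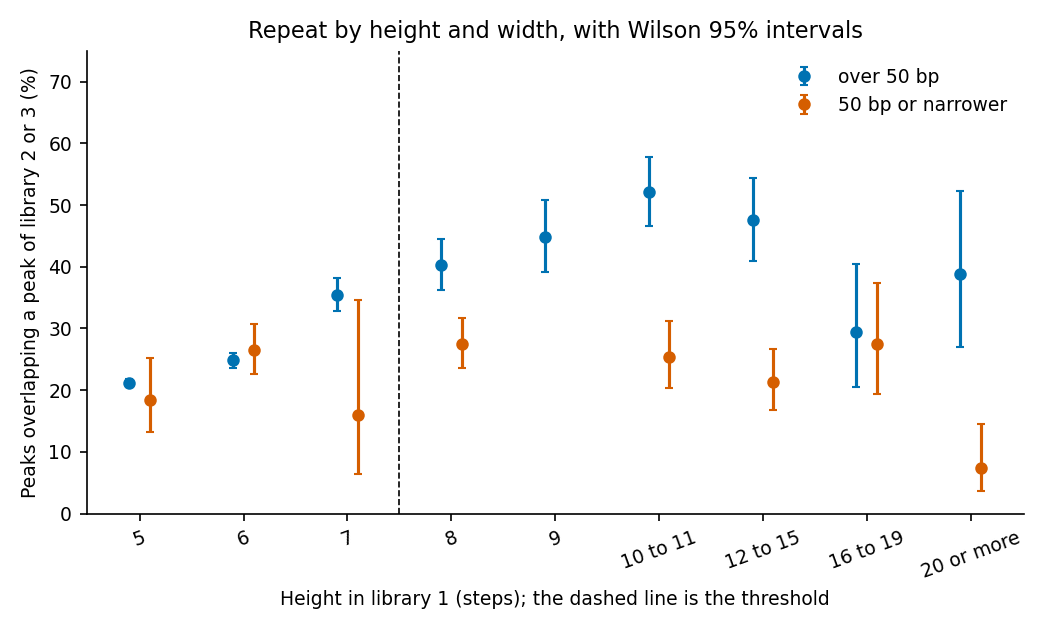
The share of library 1 peaks that overlap a peak of library 2 or 3, in percent, by their height class in steps, for peaks over 50 bp and for narrower ones. Bars are Wilson 95% intervals and classes under 20 peaks are left out; the broad peaks go from 21.1% at 5 steps to 52.2% at 10 to 11 steps, and the narrow peaks of 20 or more steps are lowest at 7.45%.

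Where a high peak was met, the peak in the other library was on the whole low but higher than at other peaks. In library 2 its median height was 4 steps of that library (2 to 22), against 3 (1 to 20) at the other peaks, and 81 of the 486 (16.7%, 13.6 to 20.2) reached 8 steps, against 93 of 8200 (1.13%). In library 3 the median was 5 steps (2 to 34), against 3 (1 to 16), and 155 of the 668 (23.2%, 20.2 to 26.6) reached 8 steps, against 150 of 7580 (1.98%). The step is 2.64 in library 2 and 3.3 in library 3, so steps of different libraries are not 1 scale. Looked at from the other side, 82 of the 430 peaks of library 2 with 8 or more steps met a high peak of library 1 (19.1%, 15.6 to 23.1), and so did 156 of the 865 of library 3 (18.0%, 15.6 to 20.7). Over their peaks of every height the shares were 0.140% in library 2 and 0.265% in library 3. Over the 236 high peaks met by both, heights in library 1 and library 2 had a Spearman correlation of 0.23 (Pearson r 0.32), those of library 1 and library 3 one of 0.22 (0.33), and those of libraries 2 and 3 one of 0.35 (0.37). These are descriptions across peaks of the same 3 libraries.

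The deposited list of regions common to the 3 libraries met 872 high peaks (33.3%, 31.6 to 35.2), against 22.2% of the other peaks and 22.6% of all peaks of library 1. Peaks of 7 steps, just below the threshold, met the list in 42.9% (40.1 to 45.6), more than the high peaks did. Peaks of 8 steps met it in 29.8% (27.0 to 32.7). Over 50 bp the shares were 43.5% for 7 steps and 44.5% for 8 steps. That list was built from these same peaks and is no independent measure. It is no count of repeat either, as only 236 high peaks overlapped a peak of both other libraries. It met 740 of the 1457 broad high peaks (50.8%) and 132 of the 1158 narrow ones (11.4%).

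The 10 high peaks that stood highest in all 3 libraries at once reached 13 to 28 steps in library 1, 6 to 21 in library 2 and 7 to 34 in library 3. The best placed, chr6:129718904-129718979, had 28, 14 and 12 steps and lay 8.77 kb from ARHGAP18, which encodes a GTPase-activating protein. The peak at chr2:68517566-68517752 had 24, 21 and 15 steps and lay inside APLF, an end-joining repair factor. Another, chr12:76827069-76827099, only 31 bp wide, had 18, 8 and 34 steps inside ZDHHC17, a palmitoyltransferase. The rest lay inside RAD54L2, MICU3, CTTNBP2 and the immunoglobulin kappa locus IGK, 14.0 kb from SHISA6, 45.7 kb from RPE65 and 600 kb from EPHA7. Of these 10, 9 had an even height in library 1 and 3 were narrow. The RNA of APLF, ZDHHC17, RAD54L2, MICU3 and CTTNBP2 was tested and none passed, the lowest adjusted p by edgeR being 0.105169 for MICU3, a regulator of mitochondrial calcium uptake (18.4 and 13.4 CPM in the knockdown, 12.1 and 7.69 CPM in the scramble libraries). MICU3 passed without scramble replicate 1, with a log2 difference of 1.05 and an adjusted p of 0.016715 by edgeR.

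By location, the share of high peaks inside genes was below that of the other peaks and the share over promoters above it. Gene spans were taken from RefSeq without exons, so that exon and intron are not told apart. A gene end is either edge of the span, whichever way the gene is read. The midpoint was inside a gene span in 1419 of 2615 (54.3%, 52.3 to 56.2), against 62.3% of the other peaks (61.9 to 62.7). It was inside a protein-coding gene in 1042 (39.8%), against 47.5%. Peaks of 7 steps, just below the threshold, were inside a gene span in 54.9% (52.1 to 57.6), so the difference did not begin at the threshold. Narrow high peaks were inside one in 60.5% (57.7 to 63.3) and broad ones in 49.3% (46.7 to 51.8). A gene end lay within 3 kb of the midpoint in 556 high peaks (21.3%, 19.7 to 22.9), against 19.7% of the other peaks (19.4 to 20.01), and these intervals overlap. Among peaks of 7 steps the share was 24.3%. On the chromosomes with promoter windows in the table, all but chromosome 8, 101 of 2501 high peaks overlapped a window (4.04%, 3.33 to 4.88), against 1361 of 66844 other peaks (2.04%, 1.93 to 2.15). Nearly all of these were broad, 98 of the 101. Only 8 of the 101 overlapped a peak of library 2 or 3 (7.92%, 4.07 to 14.9), while 614 of the 1312 broad high peaks outside the windows did (46.8%, 44.1 to 49.5). The other peaks over promoter windows overlapped either library in 16.5% (14.6 to 18.5). On the same chromosomes, the midpoint lay within 1 kb of an annotated start in 145 of 2501 high peaks (5.8%). This was so for 3075 of 66844 other peaks (4.6%), and for 121 of 1210 peaks of 7 steps (10%). Among high peaks it was so for 16 of 1091 narrow ones (1.47%) and 129 of 1410 broad ones (9.15%).

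By chromosome, high peaks made up from 1.76% of the library 1 peaks (chromosome 14, 87 of 4947) to 6.91% (chromosome 19, 65 of 941), and chromosomes 21 and 22 were next with 6.44% and 6.69%. Within 1 Mb of a stretch of at least 1 Mb without any peak lay 120 high peaks (4.59%, 3.85 to 5.46), against 2.10% of the other peaks. Most of these high peaks were broad, 102 of 120. Of the peaks of 7 steps 5.83% (4.66 to 7.26) lay there, and of those of 6 steps 3.83% (3.36 to 4.36). The difference from the other peaks thus did not begin at the threshold.

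Histone genes are made in S phase in large amounts, from clusters on chromosomes 6 and 1. High peaks lay over the windows of 9 of 16 H2A genes (56.2%) and 8 of 18 H2B genes (44.4%), which are the histones of the outer dimers of the nucleosome. They lay over 2 of 11 H3 genes (H3C2 and H3C10, 8 steps each), and over 0 of 13 H4 and 0 of 9 linker H1 genes. Together this is 19 of 67 genes (28.4%), against 123 of 26246 genes with a window (0.469%). Any peak of library 1 lay over 29 of the 67 (43.3%), against 6.28% of all genes. Library 2 had a peak over 9 of the 67 (13.4%) and library 3 over 8 (11.9%), against 11.1% and 12.4% of all genes. The 19 genes share 14 high peaks, since divergent H2A and H2B pairs lie under 1 peak. Those 14 had 8 to 34 steps, a median width of 238.5 bp (139 to 419 bp), and no overlap with a peak of library 2 or 3, while 8 of them met a common region. The family was singled out after its genes had been seen among the high peaks, so the counts describe it.

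**Figure D3:**
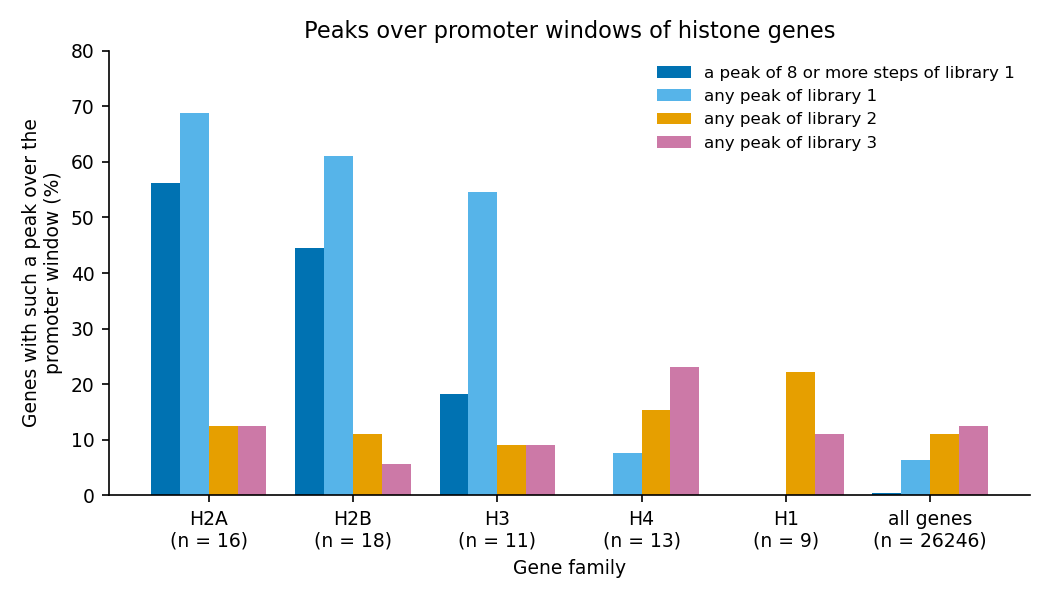
Bars give the percent of genes of each histone family, and of all genes with a promoter window, over whose window a peak of the named kind lies. H2A and H2B stand at 56.2% and 44.4% for high peaks of library 1, H4 and H1 at 0, and libraries 2 and 3 lie between 5.56% and 23.1% in every family.

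All midpoints of the histone high peaks lay upstream of the start, from -210 to -64.5 bp with a median of -133.5 bp, over 21 pairs of a gene start and a peak, and 11 of the 21 reached across the start. The windows themselves lie mostly upstream. The octamer in capitals lay inside the high peak in the 3 histone windows shown, from -49 to -42 bp in H2BC12, from -208 to -201 bp in H2AC11 and from -149 to -142 bp in H2BC17, counted from the start. Those high peaks ran from -255 to -23 bp, from -390 to 28 bp and from -228 to 30 bp. They cover most of each window, so nearly any match in it would lie inside the peak. The octamer was in 15 of the 21 histone windows under a high peak (71.4%, 50.04 to 86.2), in 27 of the 72 windows of all histone genes (37.5%), in 1 of the 114 other windows under a high peak (0.877%) and in 590 of all 33725 windows (1.75%). The 21 windows belong to 19 genes and 14 high peaks, and are part of the 72. Of the 19 genes, 9 encode H2A, 8 H2B and 2 H3, while the 72 windows also cover H4 and H1 genes. The share within H2A and H2B genes alone was not counted, so peak and family cannot be told apart here. Windows of a divergent pair can hold the same octamer, so they are not independent and the interval does not allow for that. The AT-rich words were in 97 of the 135 windows under a high peak (71.9%, 63.7 to 78.8) and in 58.3% of all windows. Without the histone windows the share was 76 of 114 (66.7%, 57.6 to 74.7). The word AATA was in 69.6% of the windows under a high peak and in 55.9% of all. In base composition the histone windows stood apart, with a median GC content of 42.3% under a high peak. The median was 59.2% in the other windows under one and 58.7% in all windows. Windows under a library 1 peak of any height held the AT-rich words in 54.5%, at a median GC content of 61%. The part of base composition in the counts was not tested.

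The spliceosomal small nuclear RNA genes were a second such family, also picked out afterwards. A high peak lay within 250 bp of 9 of the 151 annotated genes (5.96%), against 0.358% of all genes with a high peak that close to an end. A peak of any height lay there at 30 of the 151 in library 1 (19.9%, against 6.12% of all genes), at 16 in library 2 (10.6%, against 18.8%) and at 24 in library 3 (15.9%, against 16.5%). Of the 9 genes, 4 were of the U5 class, RNU5A-1 with 26 steps, RNU5E-1 with 19, RNU5F-1 with 15 and RNU5B-1 with 14. RNU4-2 had 21 steps, RNU1-2 19, RNU1-1 9, RNU11 of the minor spliceosome 8, and RNU2-2 8. Their peaks were 106 to 457 bp wide. Of these 9 peaks, 1 met a peak of library 2, at RNU5F-1, and 2 met a peak of library 3, at RNU5F-1 and RNU2-2. SNORD118, the U8 snoRNA that serves ribosomal RNA cleavage, had a high peak of 12 steps next to it. No high peak lay within 250 bp of the 439 transfer RNA genes, while a peak of any height of library 1 did so at 46 of them.

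High peaks also lay close to each other. Chained at 50 kb or less, groups of at least 6 formed 25 clusters with 227 of the high peaks (8.68%). Of these 227, 148 overlapped either library (65.2%, 58.8 to 71.1) and 60 overlapped both (26.4%). Of the 1860 high peaks with no other within 50 kb, 523 overlapped either library (28.1%, 26.1 to 30.2). Width goes with this: 6 of the 227 were narrow, against 1071 of the 1860 (57.6%). The cluster rule was set after the data had been seen.

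The largest cluster lay at chr1:143192550-143270982, beside a peak-free stretch, with 17 high peaks of which 12 met either library. One at chr12:84599486-84697578 had 15, of which 11 did, with no gene. At chr21:8989022-8999917, 13 high peaks reached 35 steps within 10.9 kb, and 2 of them met either library. Among protein-coding genes the most high peaks lay in PCLO, a scaffold of the presynaptic active zone, with 15, and in KAT6B, a histone acetyltransferase, with 13. CUBN, the vitamin B12 uptake receptor cubilin, had 8, CNTNAP4, a neuronal adhesion protein, 7, and FAP, a serine protease of activated fibroblasts, and CCDC102B had 6 each. The long non-coding LOC100505498 had 6 and the IGK locus 10. The PCLO cluster begins outside the gene, and the gene also holds a high peak beyond the cluster, so their 15 high peaks each are not the same set. In the PCLO cluster, 11 of 15 high peaks met either library, and peaks of all heights covered 15.7% of its 94.9 kb in library 1, 4.70% in library 2 and 15.4% in library 3. In the KAT6B cluster 7 of 13 did, and the cover of its 39.6 kb was 23.9%, 8.69% and 9.43%. The highest peak inside PCLO had 27 steps in library 1 over 921 bp. In KAT6B the widest of all high peaks, 1733 bp with 20 steps, met a peak of 4 steps in library 2 and none in library 3.

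**Figure D4:**
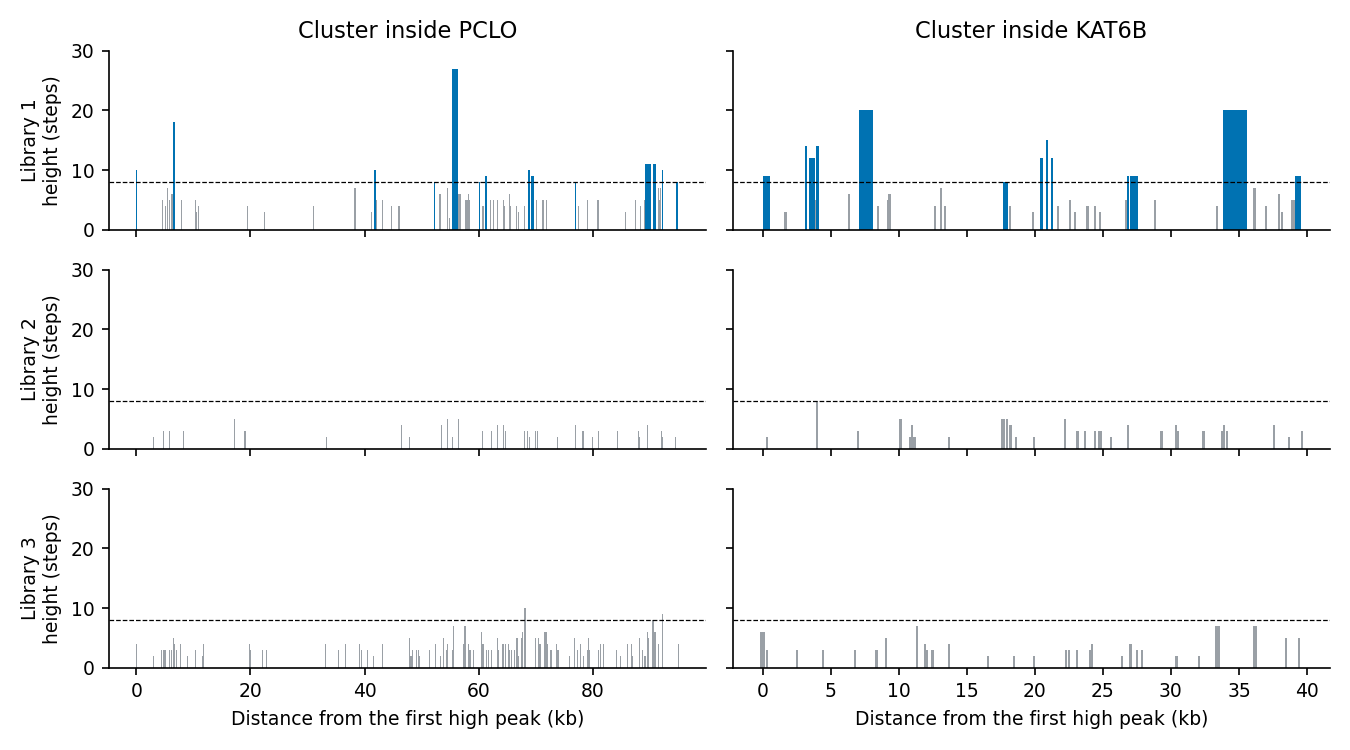
Peaks of the 3 libraries in the clusters at PCLO and KAT6B, with the distance from the first high peak in kb across and the height in steps of each library upwards. The first high peak of the PCLO cluster lies outside the gene span. High peaks are blue, all others grey, the dashed line stands at 8 steps, and bar width is peak width (at least 0.15 kb drawn); library 1 reaches 27 steps in PCLO and 20 in KAT6B, library 2 reaches 5 and 8, and library 3 reaches 10 and 7.

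Genes next to high peaks were then read in the RNA. In all, 1433 of 25807 genes tested passed an adjusted p of 0.05 by edgeR (5.55%), 595 higher in the knockdown (2.31%) and 838 lower (3.25%). With a high peak within 3 kb of an end, 31 of 380 tested genes passed (8.16%), 21 higher and 10 lower, with a median log2 difference of 0.09. With a high peak inside the span, 75 of 857 passed (8.75%), 51 higher and 24 lower, with a median of 0.10. The median over all genes tested was 0.00. Among protein-coding genes alone 7.93% passed, and of those with a high peak inside 68 of 784 (8.67%) did. The split by direction differed from that of all genes, 51 to 24 against 595 to 838. Genes with a library 1 peak of any height inside passed in 7.94%, 287 higher and 375 lower. Those with one within 3 kb of an end passed in 7.27%, 198 higher and 262 lower. Leaving out 1 library at a time left 45 to 50 genes with a high peak inside and 16 to 25 with one near an end, and 34 to 43 of the 75 and 14 to 17 of the 31 passed again.

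Genes whose high peak was repeated were counted apart. Of genes with a high peak inside that met either library, 30 of 244 tested passed (12.3%), 24 higher and 6 lower, with a median log2 difference of 0.18. Of those whose high peak met both libraries, 11 of 60 passed (18.3%), 10 higher and 1 lower, with a median of 0.23. For a repeated high peak within 3 kb of an end the counts were 7 higher and 1 lower of 70 for either library, and 4 higher and 0 lower of 18 for both. These subsets were formed after the counts had been seen and are small, and gene length, which sets how many peaks a gene can hold, was not tested. The 123 genes with a high peak over the promoter window gave other counts: 7 of 109 tested passed (6.42%), 5 higher and 2 lower, with a median of 0.04.

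SALL4 was itself among the genes with a high peak near an end: chr20:51803203-51803488 lay 825 bp from the nearer edge of its span. This peak was 286 bp wide, with 8 steps in library 1, none in library 2 and 6 in library 3. Since the hairpin targets its transcript, its fall is not read against that peak. MEIOC, a meiosis factor, lay at 11.3 and 11.2 CPM in the knockdown and 25.1 and 25.6 CPM in the scramble libraries, and fell by 1.17 ± 0.20 (SE) on the log2 scale (adjusted p by edgeR 0.000624331). WBP1L lay at 34.1 and 35.7 CPM against 69.4 and 69.6 CPM (log2 difference -0.99, adjusted p by edgeR 0.00125626). PGGHG, a glucosidase of collagen sugars, lay at 29.8 and 24.5 CPM against 55.4 and 55.8 CPM (log2 difference -1.03, adjusted p by edgeR 0.00124401). PGGHG and NLRP6 lie beside the same high peak, 58 bp wide with 8 steps, so they are not 2 separate cases. The calls of these 3 genes held with each library left out. In MEIOC, WBP1L and PGGHG the libraries of the groups did not overlap, and none of the 3 peaks met library 2 or 3.

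SLC7A2, a transporter of arginine and lysine, lay at 63.3 and 63.3 CPM in the knockdown and 120 and 115 CPM in the scramble libraries (log2 difference -0.90, adjusted p by edgeR 0.00267976). Its high peak of 21 steps lay inside the span, 2074 bp from the nearer edge, and met neither library 2 nor 3. NCOA2, a nuclear receptor coactivator, went the other way, with 144 and 153 CPM against 85.5 and 75.6 CPM (log2 difference 0.88, adjusted p by edgeR 0.00358574). It holds 3 high peaks, 33, 82 and 25 bp wide, none of which met library 2 or 3. DRC3, a part of the axoneme, lay at 5.68 and 6.43 CPM against 2.62 and 2.88 CPM (log2 difference 1.14, adjusted p by edgeR 0.00535527). Its high peak of 10 steps lay 12 bp from the nearer edge of its span and met neither library 2 nor 3. TOM1L2, its neighbour at that same peak, lay at 41.6 and 60.05 CPM against 23.6 and 31.0 CPM with an adjusted p of 0.0120177 by edgeR, which became 0.183837 without knockdown replicate 2 and 0.116181 without scramble replicate 1. Of the remaining named genes near an end, COX6B2 and NLRP6 were lower and the pseudogene FBXO36P1 was higher, each at 1.35 CPM or less in every library and each lost when scramble replicate 2 was left out (adjusted p by edgeR 0.325553, 0.057783 and 0.0923242). COX6B2 was also lost without knockdown replicate 2 (0.0579838).

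CNTNAP4 had 7 high peaks inside and 1 near an edge of its span, up to 21 steps, and 4 of these 8 met library 2 or 3. Its RNA lay at 157 and 151 CPM in the knockdown and 90.1 and 93.4 CPM in the scramble libraries, a rise of 0.75 ± 0.18 (SE) on the log2 scale (adjusted p by edgeR 0.0116265). The adjusted p was 0.0511349 without knockdown replicate 1 and 0.101458 without scramble replicate 1. CUBN lay at 42.9 and 54.2 CPM against 28.3 and 26.9 CPM (log2 difference 0.82, adjusted p by edgeR 0.0101202), lost without knockdown replicate 2 (0.143456) or scramble replicate 2 (0.0579385). FAP lay at 56.7 and 54.6 CPM against 38.2 and 32.2 CPM (log2 difference 0.66, adjusted p by edgeR 0.0327236), and was lost when any 1 of the 4 libraries was left out (0.0659881 to 0.280675). PCLO and KAT6B, which hold the most high peaks, did not pass: PCLO lay at 64.8 and 57.0 CPM against 98.7 and 68.2 CPM (adjusted p by edgeR 0.200288), and KAT6B at 231 and 215 CPM against 242 and 163 CPM (adjusted p by edgeR 0.802888). CCDC102B did not pass either (adjusted p by edgeR 0.870078). Of the other genes in clusters, ZSWIM2 was higher (adjusted p by edgeR 0.0445513) and ANXA1, an annexin, was lower (0.0472544), both lost without knockdown replicate 1 (0.374374 and 0.0501041). ZSWIM2 was also lost without scramble replicate 2 (0.335949), and ANXA1 without knockdown replicate 2 (0.14973) or scramble replicate 1 (0.562065). IFIH1, a sensor of double-stranded RNA, did not pass (0.661016).

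Of the 12 genes with a high peak inside and the lowest adjusted p, 3 fell and 9 rose. DENND6A, which activates a Rab GTPase, lay at 14.1 and 11.5 CPM in the knockdown and 45.8 and 40.8 CPM in the scramble libraries, and fell by 1.76 ± 0.20 (SE) on the log2 scale (adjusted p by edgeR 5.84427e-06). Its high peak, 40 bp wide with 12 steps, met neither other library. LMBR1 lay at 37.3 and 27.5 CPM against 116 and 87.6 CPM (log2 difference -1.65, adjusted p by edgeR 2.16378e-05), with a 39-bp peak of 16, 8 and 6 steps in the 3 libraries. CAPZA2, an actin capping subunit, lay at 56.7 and 50.4 CPM against 141 and 104 CPM (log2 difference -1.20, adjusted p by edgeR 0.00037103), with a 26-bp peak met by neither. These 3 genes, the ones that fell, hold narrow peaks of 26 to 40 bp.

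Among those that rose, DNAI7, a factor of ciliary dynein, lay at 37.7 and 32.7 CPM in the knockdown and 15.2 and 10.4 CPM in the scramble libraries (log2 difference 1.46, adjusted p by edgeR 0.000134905), with a 351-bp peak of 12 steps that met 4 steps in library 2. METAP1D, a mitochondrial methionine aminopeptidase, lay at 37.5 and 37.4 CPM against 18.3 and 16.4 CPM (log2 difference 1.11, adjusted p by edgeR 0.000747), and holds 3 broad high peaks of 11, 12 and 30 steps side by side, of which 1 met library 2. PARD3B, a cell polarity protein, lay at 37.2 and 42.3 CPM against 17.3 and 19.6 CPM (log2 difference 1.11, adjusted p by edgeR 0.00076316), with a 231-bp peak of 10, 6 and 3 steps. The other 6 were ADGRL3, LZTFL1, SPECC1L, DNAH3, TRAF3IP2-AS1 and PAN3, with log2 differences from 1.04 for PAN3 to 1.87 for DNAH3, and their peaks were 28 to 65 bp wide. All 12 passed under every alternative run, each left-out library included. TRAF3IP2-AS1 is an antisense gene, and since the strand setting of the counting is not given in the sources used here, its reads cannot be told apart from those of the genes it overlaps.

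**Figure D5:**
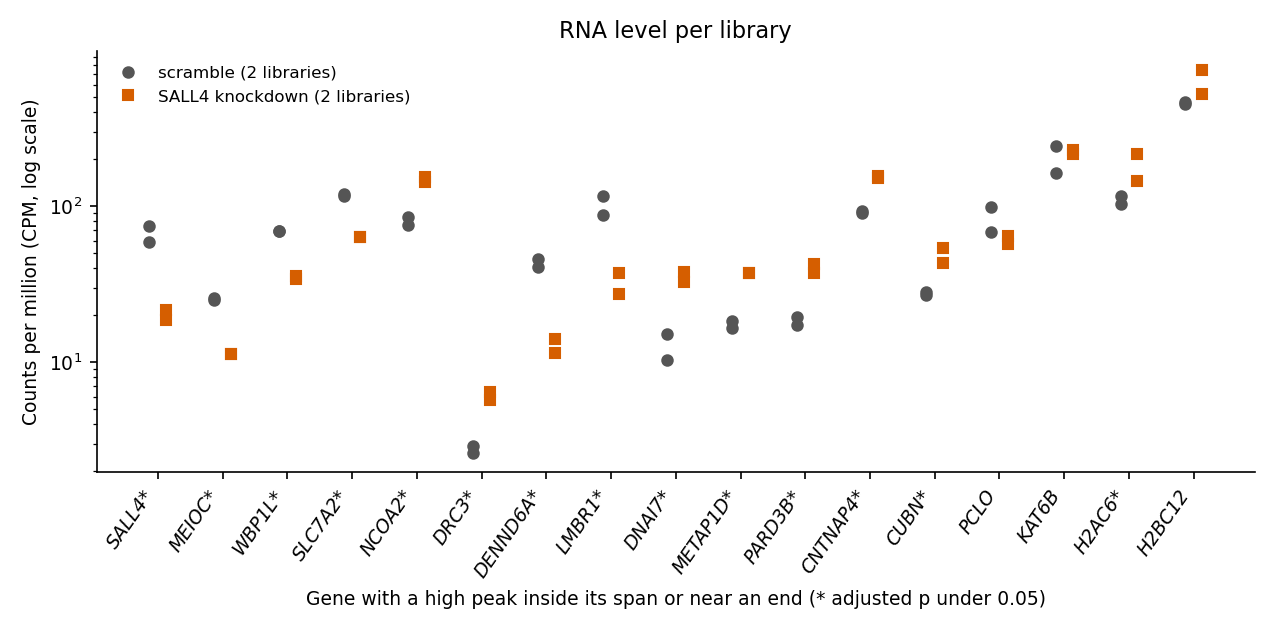
RNA level in CPM (log scale) of 17 genes with a high peak inside or near an end, each point 1 library, scramble in grey and SALL4 knockdown in orange; a star marks an adjusted p under 0.05 by edgeR. SALL4, MEIOC, WBP1L, SLC7A2, DENND6A and LMBR1 lie lower in both knockdown libraries, while PCLO, KAT6B and H2BC12 carry no star.

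Of the histone genes with a high peak over the promoter, 17 were tested and 2 passed, both higher in the knockdown, 15 had a log2 difference above 0, and the median was 0.41. Of all 51 histone genes tested, 5 passed, all higher, 42 lay above 0 and the median was 0.40. Among all genes tested 5.55% passed and 2.31% were higher. With 17 and 51 genes, the counts passed are too small to be read as a result about the family. H2AC6 lay at 145 and 215 CPM in the knockdown and 104 and 117 CPM in the scramble libraries (log2 difference 0.71, adjusted p by edgeR 0.0337241), and H2AC20 at 381 and 536 CPM against 274 and 270 CPM (0.75, 0.0216498). Both were lost without knockdown replicate 2 (adjusted p by edgeR 0.448999 and 0.297389) and without scramble replicate 1 (0.190135 and 0.0966425), and H2AC20 also without scramble replicate 2 (0.0808988). H2BC12, under the highest promoter peak, lay at 526 and 748 CPM against 464 and 449 CPM (adjusted p by edgeR 0.182734), and was past the threshold without knockdown replicate 1 (0.0487473). Knockdown replicate 2 stood apart over the family: it lay above knockdown replicate 1 in 16 of the 17 genes and in 49 of all 51 histone genes, against 51.7% of all genes tested, and knockdown replicate 1 lay below the scramble mean in 8 of the 17. Without knockdown replicate 2 the median of the 17 was 0.05, with 9 above 0, and H2AC6 and H2AC20 were lost as given above. Without knockdown replicate 1 it was 0.71, with all 17 above 0 and 6 past the threshold by edgeR. Both knockdown libraries lay above both scramble libraries in 9 of the 17 genes (52.9%), against 24.2% of all genes tested. Histone genes are near copies of each other, and reads of one can be counted for another. H2BC11, H2BC21 and H3C2 were likewise past it without knockdown replicate 1 (0.0457555, 0.022387 and 0.0301259) and not with all libraries (0.188642, 0.0799778 and 0.39349). Of the small nuclear RNA genes with a high peak, 8 were tested and none passed, the lowest adjusted p by edgeR being 0.268535 for RNU5A-1. With 5.55% of all genes tested passing, 8 genes are too few to read this as a result about them. RNU5E-1 was past the threshold without knockdown replicate 1 (0.00522421) and RNU5F-1 without scramble replicate 2 (0.00497901), both lower in the knockdown. PABPN1 did not pass (0.955916).

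The genes chosen for the tissue and for SALL4 were then looked up among the high peaks. Of all protein-coding genes, 5.80% had a high peak inside or within 3 kb of an end. Of the NuRD complex, 1 of 14 placed genes had one (7.14%, 1.27 to 31.5), GATAD2A, a zinc finger subunit, with a peak of 9 steps 104 bp from the nearer edge of its span. Among the histone demethylases there were 4 of 17 (23.5%, 9.56 to 47.3), KDM1A, KDM6B, KDM3B and KDM4C, with 8 to 10 steps. KDM3A, a histone H3 demethylase, had none, though 8 lower peaks of library 1 lay inside it. Its RNA rose from 47.1 and 64.0 CPM in the scramble libraries to 93.2 and 91.7 CPM in the knockdown (log2 difference 0.73, adjusted p by edgeR 0.0184557), a call lost without knockdown replicate 1, knockdown replicate 2 or scramble replicate 1 (adjusted p by edgeR 0.0639064, 0.05431 and 0.312663). Of the oncofetal genes 2 of 16 had one: HMGA2, an AT-hook protein, with 8 steps met by 3 steps in library 3, and IGF2BP2, an RNA-binding protein, with a 46-bp peak of 24 steps met by 10 steps in library 3. KRT8 was the only one of 14 liver markers (12 steps), SALL4 the only one of the 4 genes of its family, and RNA45SN2 the only one of 14 ribosomal and small RNA genes, with 2 high peaks within 3 kb. Apart from SALL4, none of these genes with a high peak passed the test in the RNA. Over each whole list, the genes passing were 1 higher and 1 lower of 15 tested for NuRD, 2 and 1 of 20 for the demethylases, 0 and 1 of 4 for the SALL family, 1 and 0 of 6 for the liver markers, 1 and 3 of 13 for the oncofetal genes, and 0 of 7 for ribosomal and small RNA. Of all genes tested 5.55% passed, and of the protein-coding ones 7.93%. With 4 to 20 genes a list, the counts are not read as results about the lists.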

How the data were processed

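CUT&RUN peaks of 3 SALL4 libraries and RNA-seq counts of 4 libraries from SNU398 cells were used. Per the submitters' processing notes, tools include BWA 0.7.17-r1188, SAMtools 1.5, SEACR 1.1 and HOMER 4.10 for build hg38, and featureCounts, STAR, DESeq2 and Trim Galore 0.4.5; no settings are given. The deposited peak lists give the total and highest signal of each peak, whose scaling is not given; every height was a whole multiple of 1 step per library (2.88, 2.64 and 3.3) within 0.01 steps. The deposited RNA counts are raw, by gene symbol, 1 file a library, with totals of 158934493 to 225624957 per library. Chi-square per degree of freedom between replicates was 144 in the knockdown and 146 in the scramble group. The authors' deposited table gives a log2 fold change and an adjusted p-value per gene for knockdown against scramble; its name speaks of 3 scramble and 3 SALL4 hairpin samples, more than the 2 a group used here, and which they were is not stated. It was used only as a check: of the 31 and 75 genes called near an end and inside, the authors' deposited table lists 27 and 69, and calls 27 and 69 of them in the same direction.

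Overlap was at least 1 bp, with Wilson 95% intervals. Distances are from peak midpoints to RefSeq GRCh38.p14 gene ends, and 19199 of 25807 tested symbols matched RefSeq, 1064 by an older name. Counts were tested with edgeR 4.0.16 (filterByExpr, TMM, robust quasi-likelihood F test, group only, Benjamini-Hochberg 0.05), and log2 differences are knockdown minus scramble. DESeq2 1.42.0 was an alternative, as were other thresholds, overlap rules, filters and left-out libraries. Interval functions and the edgeR step were tested on simulated data. With 2 libraries a group, replicate numbers are not known to pair samples, so the fit has no block. Named peaks were the 10 highest and the 10 best over 3 libraries; named genes were those at named peaks, up to 12 called genes near an end and 12 inside by adjusted p, up to 8 genes with 3 or more high peaks, genes of the lists with a high peak, and SALL4 and KDM3A. Histone, small nuclear RNA and cluster genes, and PABPN1 and SNORD118, were added after seeing values. The high peaks and the gene lists (NuRD complex, histone demethylases, SALL family, hepatocyte and liver carcinoma, oncofetal and liver progenitor, ribosomal DNA and small RNA) were chosen with earlier results of these data known.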

Additional observations from a re-analysis of the deposited data

Results flagged for a closer look

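Outside chromosomes 1 to 22, and so outside the high peaks as chosen, 147 of the 1838 peaks of library 1 on unplaced, unlocalised and alternative sequences reached 8 or more steps (7.998%), the highest 25 steps. On chromosomes 1 to 22 the share was 3.62%. These peaks entered no comparison, and the IgG libraries were not analysed here.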

How the results depend on the processing

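Of 88 alternative values of the counts and shares, 43 stayed within the interval of the value given or within 1.5 times the count. The share met by library 2, library 3 and both was 12.8%, 19.1% and 4.86% with the midpoint inside a peak, 12.05%, 18.5% and 4.47% with a cover of at least 0.5 of the width, 12.7%, 19.8% and 5.09% against peaks of 4 or more steps, 39.3%, 45.4% and 25.5% within 500 bp, and 25.7%, 32.3% and 13.9% for high peaks over 50 bp, the last chosen after seeing the data. High peaks stood above the other peaks under each of the 5 overlap rules run in both libraries, by 1.11 to 4.73 times. Leaving out library 2 or 3 turns the share met by both into 25.5% or 18.6%. The share in common regions was 35.6% from 9 steps, 36.4% from 7 steps, 29.7% with high peaks within 1 kb merged and 50.8% over 50 bp. Within reach of a gene end lay 10.8% for protein-coding genes, 11.4% at 1 kb, 41.8% at 10 kb and 24.3% for high peaks over 50 bp. Inside spans lay 39.8% for protein-coding genes and 49.3% over 50 bp. Genes called numbered 4921 with the replicate block, 932 at 1 CPM in 2 libraries and 810 to 1191 without 1 library. Those near an end numbered 102 with the replicate block, 20 at 1 CPM, 18 from the combined matrix, 69 within 10 kb, 17 from 9 steps and 16 to 25 without 1 library. Those inside numbered 248 with the replicate block, 39 for high peaks over 50 bp and 45 to 50 without 1 library. All 31 and 75 calls passed again under the block. The deviations of equally numbered replicates had a correlation of 0.20 over 25807 genes, which does not show that the numbers pair the samples. The causes of these shifts were not tested. For the 78 named genes, 697 of 757 alternative values kept their side of the threshold, 37 lost it, 23 gained it and 0 changed direction among called values. Depth of the CUT&RUN libraries is not known, and 2 libraries a group limit the RNA test.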
